A study of Mus musculus with 6 samples.

Results

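The 45 genes described here act in DNA repair or in the maintenance of telomeres. They were taken by name from the 31053 genes listed for nuclei of mouse hippocampus, and all 45 were listed. The set was selected on measured values: it was drawn up because Atm, Terf1, Mcph1 and Smc6 were lower after treatment with a histone deacetylase (HDAC) inhibitor. The comparison of inhibitor with vehicle after fear conditioning therefore chose the genes, and its values are given here as a description only. The Context pair is a separate pair of libraries, but the set was proposed with its values also known, and it is described in the same way. The comparisons of exposures and of cell types did not choose the genes and carry tests.

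RNA of single nuclei was captured in droplets and sequenced from its 3' end in 6 libraries. Each library pooled tissue labelled as hippocampus (DG) from 5 male mice of the C57BL/6J strain at 12 weeks of age. The injection was either vehicle (Veh) or 30 mg/kg of CI-994, which blocks class I HDACs (labelled HDACi). It came 1 h before the mice entered a chamber, and tissue was taken 1 h after that exposure. Mice in contextual fear conditioning (CFC) were given 2 foot shocks of 0.2 mA in the chamber, while those in Context were not shocked. The Veh-CFC and HDACi-CFC groups had 2 libraries each, while Veh-Context and HDACi-Context had 1 library each, and all mice had an injection and a chamber exposure. A library mixes 5 animals, so the spread between libraries is that between pools, and nothing in the labels says that the 2 pools of a group were treated on separate days.

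Cells carry several systems for repairing DNA. Double-strand breaks are sensed by the MRN complex and signalled by the kinases ATM, ATR and DNA-PK, then joined end to end or copied from an intact sister by homologous recombination. Telomeres, the ends of chromosomes, are kept from being read as breaks by the shelterin complex. In neurons, which do not divide, breaks have been described at the promoters of activity-regulated genes, and inherited loss of ATM is known for the loss of neurons in ataxia telangiectasia.

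By role, the genes were 3 DNA damage kinases (Atm, Atr, Prkdc), the 3 subunits of the MRN complex (Rad50, Mre11a, Nbn), 5 SMC proteins and chromatin remodellers (Smc1a, Smc3, Smc5, Smc6, Atrx) and 6 shelterin genes (Terf1, Terf2, Terf2ip, Tinf2, Pot1a, Pot1b). There were 5 genes of the chromatin response at breaks (Mcph1, Trp53bp1, Mdc1, Rnf8, Rnf168), 6 of homologous recombination (Brca1, Brca2, Palb2, Rad51b, Rad51c, Rad52) and 5 of end joining and ligation (Xrcc4, Xrcc5, Xrcc6, Lig3, Lig4). The rest were 2 mismatch repair genes (Msh3, Msh6), 5 of nucleotide excision repair (Ercc4, Ercc5, Ercc6, Xpa, Xpc), 3 Fanconi anaemia genes (Fancl, Fancc, Fanca) and 2 poly(ADP-ribose) polymerases (Parp1, Parp2).

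The 6 libraries held 24508202 to 45570814 unique molecular identifiers (UMIs, each standing for 1 captured RNA molecule), and 26839 nuclei were kept. Median UMIs per nucleus were 5955 and 6808 in Veh-CFC against 5368 and 6348 in HDACi-CFC, while median genes per nucleus were 2772 and 3035 against 2218 and 2466. Clusters named from marker genes gave the 8 classes tested, from 693 oligodendrocyte precursor nuclei to 9047 granule nuclei of the dentate gyrus (DG). The leading genes of the granule nuclei included Prox1 and Stxbp6. Endothelial, immature neuron, subicular and mural or leptomeningeal nuclei were named too but left out of the tests. The interneuron class held clusters of 509 nuclei (Vip, Cnr1 and Adarb2 among the leading genes) and 424 nuclei (Gad2 and Erbb4). A cluster of 676 nuclei with Sst and Nxph1 among its leading genes was closest to the interneuron markers. It had no listed interneuron marker among its 10 leading genes, which naming required, so results for interneurons and for neurons against glia leave it out. Between 1 and 11 barcodes were shared by any pair of libraries. For the library labelled Veh-Context, title and treatment say vehicle and the description says HDACi. Among 2272 other genes called in DG nuclei after CFC with a change of more than 1 on the log2 scale, that library lay nearer to the Veh-CFC mean for 1912 (84.2%). It was used as vehicle.

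Levels are UMIs summed over the nuclei of a class in a library, given as CPM (the gene's UMIs for every 1000000 of that sum) and scaled by the trimmed mean of M values (TMM), and a fold change is HDACi over vehicle on the log2 scale with its standard error. Calls rest on edgeR's quasi-likelihood test over all genes of a class, at an adjusted p under 0.05. After CFC, 44 of the 45 genes could be tested in DG granule nuclei. The exception was Rnf8, a ubiquitin ligase at breaks, which was listed at 0 UMIs in all 8 classes in every library. Of the 44, 28 were called lower in HDACi-CFC, 5 were called higher and 11 were not called. Over all 15620 genes tested in this class 26.5% were called lower and 23.8% higher. The median log2 fold change was -0.71 over the 44 genes and 0.01 over all genes. These counts come from the comparison that chose the genes, so nothing further is read from them.

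Promoter sequences are shown for the genes on which the set was drawn up and for the pair that rose most in DG granule nuclei, since the RNA measured in nuclei includes newly made transcripts. RefSeq's table for GRCm38.p6 (the assembly also called mm10) held a promoter for 39 of the 45 genes, and Terf1 and Mcph1 are named only. Each sequence runs 5′ to 3′ on the gene's strand from 250 bases before to 50 after the annotated start. Capitals mark matches on either strand to the CCAAT box letters CCAAT, the SP1-type letters GGGCGG, the NRF1-type letters GCGCATGC, the ETS-type letters CCGGAAG, the E2F-type letters TTTCGCGC, the CRE letters TGACGTCA or the ZNF143-type letters ACTACAATT.
Atm (chr9:53536622-53536921, minus strand): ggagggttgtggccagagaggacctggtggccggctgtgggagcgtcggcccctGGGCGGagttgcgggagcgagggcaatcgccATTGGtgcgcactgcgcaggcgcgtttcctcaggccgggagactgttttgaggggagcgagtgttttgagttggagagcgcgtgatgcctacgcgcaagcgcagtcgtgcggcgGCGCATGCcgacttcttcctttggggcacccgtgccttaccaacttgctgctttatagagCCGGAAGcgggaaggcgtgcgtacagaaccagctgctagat
Smc6 (chr12:11265636-11265935, plus strand): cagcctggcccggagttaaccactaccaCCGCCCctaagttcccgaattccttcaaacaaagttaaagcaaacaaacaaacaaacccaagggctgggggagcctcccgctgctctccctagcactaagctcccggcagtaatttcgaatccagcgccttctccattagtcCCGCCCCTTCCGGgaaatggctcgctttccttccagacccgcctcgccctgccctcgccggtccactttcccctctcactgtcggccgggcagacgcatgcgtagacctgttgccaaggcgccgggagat
Parp1 (chr1:180568641-180568940, plus strand): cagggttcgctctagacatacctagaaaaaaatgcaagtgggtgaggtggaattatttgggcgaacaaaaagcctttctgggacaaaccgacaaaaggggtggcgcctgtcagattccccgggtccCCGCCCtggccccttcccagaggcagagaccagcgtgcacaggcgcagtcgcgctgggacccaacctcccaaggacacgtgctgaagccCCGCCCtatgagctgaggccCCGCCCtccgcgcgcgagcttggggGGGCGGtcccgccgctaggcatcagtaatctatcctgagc
Xrcc5 (chr1:72307171-72307470, plus strand): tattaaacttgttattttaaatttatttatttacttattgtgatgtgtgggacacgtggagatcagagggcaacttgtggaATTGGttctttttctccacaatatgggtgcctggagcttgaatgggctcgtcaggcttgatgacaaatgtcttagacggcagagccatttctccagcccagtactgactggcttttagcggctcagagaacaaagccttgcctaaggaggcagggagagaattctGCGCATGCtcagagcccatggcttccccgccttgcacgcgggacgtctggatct

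The promoters were GC-rich as a group. The 39 had a median of 22 CpG dinucleotides and 58.7% GC, against 7 and 52.7% over all 32851 promoters of the table. The 39 were counted at the first start listed, while the 32851 hold every start of every gene, expressed in these nuclei or not. Shares among expressed genes were not taken, so these differences cannot be read as particular to the set. GGGCGG was found in 26 of the 39 (66.7%) and in 35.7% of all promoters. GCGCATGC, which is in the window of Atm and of Xrcc5, was found in 7 (17.9%) and in 2.71% of all. CCGGAAG, in the windows of Atm and Smc6, was found in 10 (25.6%) and in 8.86% of all, and CCAAT in 19 (48.7%) and in 37.4%. TGACGTCA was found in 4 of the 39 and TTTCGCGC in 2, beside 1.79% and 0.32% of all promoters, and ACTACAATT in 1, beside 0.39%. No marked matches overlap in these windows, and in that of Smc6 an SP1-type and the ETS-type match adjoin. Lower and higher genes both had the SP1-type letters: they occur in the windows of Atm, Smc6 and Parp1, and not in that of Xrcc5.

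The kinase genes that start break signalling were lower in DG granule nuclei of HDACi-CFC. Atm (chr9:53439149-53536740, minus strand) encodes the kinase that responds to double-strand breaks. Its levels were 36.0 and 38.4 CPM in the 2 Veh-CFC libraries and 8.60 and 7.01 CPM in the 2 HDACi-CFC libraries, from 292, 510, 52 and 64 UMIs. In Context its levels were 40.8 CPM with vehicle and 10.9 CPM with HDACi. All 3 vehicle libraries were above all 3 HDACi libraries, and the log2 fold change after CFC was -2.28 ± 0.15 (SE), or 4.85-fold lower. Atr, the kinase that responds to single-stranded DNA at stalled forks, had 42.1 and 40.3 CPM in Veh-CFC against 15.7 and 16.2 CPM in HDACi-CFC. With 44.9 and 21.9 CPM in the vehicle and HDACi Context libraries it also did not overlap between treatments, and its log2 fold change after CFC was -1.36 ± 0.12. Prkdc, the catalytic subunit of DNA-PK in end joining, had 54.1 and 50.8 CPM against 26.5 and 29.0 CPM after CFC, and 48.1 against 32.8 CPM in Context. Its log2 fold change was -0.91 ± 0.11.

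**Figure D1:**
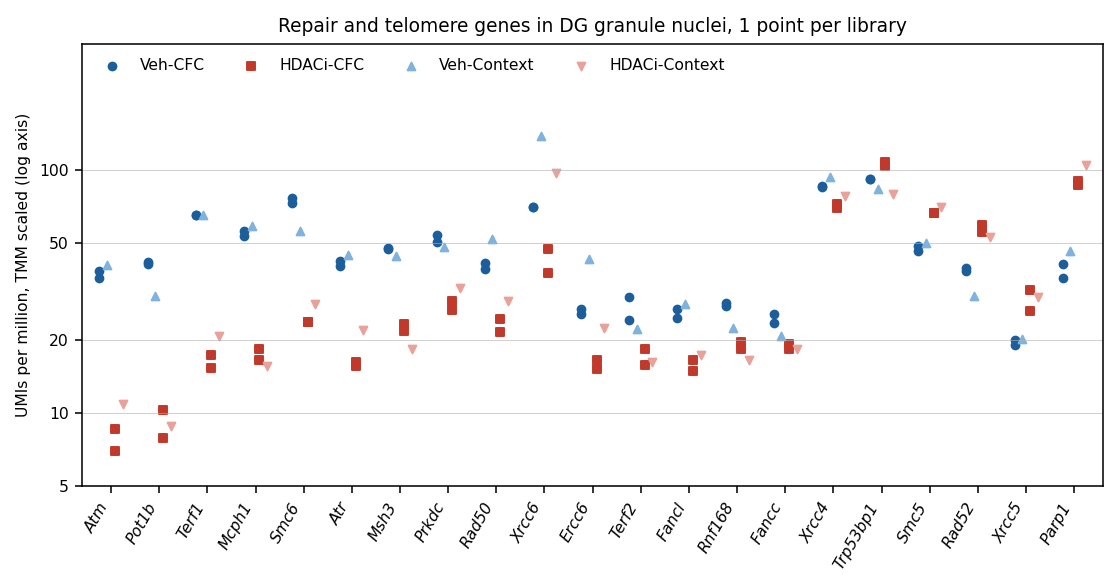
Level of 21 genes in DG granule nuclei by library, in CPM after TMM scaling on a log axis, ordered by the log2 fold change after CFC. Each point is 1 library (dark circles Veh-CFC, dark squares HDACi-CFC, light triangles the Context libraries). At the left end Atm lies at 36.0 and 38.4 in Veh-CFC against 8.60 and 7.01 in HDACi-CFC, and at the right end Parp1 lies at 40.9 and 35.9 against 86.8 and 90.4.

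Among the MRN genes Rad50, an ATPase of the SMC family that tethers broken ends, had 41.5 and 39.2 CPM in Veh-CFC against 24.3 and 21.5 CPM in HDACi-CFC. The Context pair gave 52.1 with vehicle and 29.0 CPM with HDACi, so the treatments did not overlap, and the log2 fold change after CFC was -0.82 ± 0.12. Mre11a, the nuclease of the complex, fell by 1.92 ± 0.16 on the log2 scale. Nbn, the subunit that recruits ATM, was measured from few molecules (43 and 15 UMIs in the first library of each CFC group) and had a log2 fold change of -0.78 ± 0.30.

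The SMC genes went different ways. Smc6 and Smc5 form the core of one complex, which resolves joined DNA molecules during recombination. Smc6 (chr12:11265886-11319785, plus strand) had 76.5 and 73.3 CPM in Veh-CFC, 23.8 CPM in both HDACi-CFC libraries, 56.4 CPM in the library labelled Veh-Context and 28.0 CPM in HDACi-Context. Every HDACi library lay below every vehicle library, with a log2 fold change of -1.65 ± 0.10 after CFC. Its partner Smc5 had 46.6 and 48.6 CPM in Veh-CFC against 66.3 and 66.5 CPM in HDACi-CFC, and 50 against 70.6 CPM in Context. Here the HDACi libraries were above the vehicle libraries in both exposures, at 0.48 ± 0.09 on the log2 scale after CFC, which became 0.12 and was not called with library-size scaling and was -0.03 per nucleus. The cohesin genes Smc1a and Smc3 and the chromatin remodeller Atrx were not called, with log2 fold changes of 0.27 ± 0.16, -0.12 ± 0.10 and 0.11 ± 0.07.

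All 6 shelterin genes of the set were called lower, with a median of -1.21. Terf1 (chr1:15805646-15844052, plus strand) encodes TRF1, which binds the double-stranded telomere repeat. It had 65.5 CPM in both Veh-CFC libraries, 17.4 and 15.4 CPM in HDACi-CFC, and 65.1 and 20.8 CPM in the vehicle and HDACi Context libraries. The 3 vehicle libraries were nearly level and far above the 3 HDACi libraries, and the log2 fold change after CFC was -2.01 ± 0.11, or 4.03-fold lower. Pot1b, one of the mouse proteins that cap the single-stranded end, had 40.9 and 41.9 CPM against 7.94 and 10.3 CPM after CFC, and 30.2 against 8.85 CPM in Context, with a log2 fold change of -2.15 ± 0.14. Terf2, which encodes the other TRF protein, had 24.1 and 30.1 CPM against 18.4 and 15.8 CPM after CFC. In Context it had 22.1 CPM with vehicle and 16.2 CPM with HDACi. Its log2 fold change after CFC was -0.70 ± 0.15, smaller than those of Terf1 and Pot1b, with no overlap of the treatments. The remaining shelterin genes, at lower levels, had log2 fold changes of -1.39 (Tinf2), -1.02 (Terf2ip) and -0.67 (Pot1a).

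In the chromatin response at breaks Mcph1 (chr8:18595131-18803189, plus strand), which encodes microcephalin, a protein of the damage response and of chromosome condensation, had 53.7 and 55.9 CPM in Veh-CFC. In HDACi-CFC it had 18.4 and 16.5 CPM, and in Context 58.8 CPM with vehicle and 15.7 CPM with HDACi. The treatments did not overlap, and the log2 fold change after CFC was -1.66 ± 0.12. Rnf168, a ubiquitin ligase that marks histones at breaks, had 27.5 and 28.5 CPM against 18.4 and 19.6 CPM after CFC, and 22.4 against 16.5 CPM in Context, with a log2 fold change of -0.56 ± 0.13. Mdc1, which docks on phosphorylated histone at breaks, fell by 2.21 ± 0.28 from a low level of 7.39 and 8.44 CPM. Trp53bp1, the end-joining factor 53BP1, had 91.9 and 91.4 CPM against 108 and 104 CPM after CFC. In Context it had 83.4 CPM with vehicle and 79.9 CPM with HDACi, so the small rise after CFC (0.21 ± 0.08) was not seen there. That call was lost or turned in sign under 10 of 13 alternative settings, among them library-size scaling, which gave -0.15.

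Genes of homologous recombination were split. Rad52, a protein that anneals single strands, had 39.5 and 38.6 CPM in Veh-CFC against 59.2 and 55.8 CPM in HDACi-CFC, with 30.2 and 53 CPM in the vehicle and HDACi Context libraries. All HDACi libraries were above all vehicle libraries, at 0.56 ± 0.10 after CFC. The call did not hold with library-size scaling, which gave 0.19. Palb2 and Brca2, which load the recombinase, fell by 1.84 ± 0.35 and 1.07 ± 0.22. Brca1, Rad51b and Rad51c were not called, at 0.24 ± 0.33, -0.02 ± 0.16 and 0.26 ± 0.17.

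Xrcc5 and Xrcc6 encode Ku80 and Ku70, the subunits of the ring that binds broken ends for joining, and they moved in opposite directions in DG granule nuclei. Xrcc5 had 19.1 and 20.0 CPM in Veh-CFC against 26.3 and 32.0 CPM in HDACi-CFC, and 20.2 against 30.0 CPM in Context. The HDACi libraries were the 3 highest, at 0.58 ± 0.13 after CFC, which was 0.22 and not called with library-size scaling. Xrcc6 had 70.3 CPM in both Veh-CFC libraries and 47.3 and 37.7 CPM in HDACi-CFC, and 138 against 97.5 CPM in Context. HDACi was lower within each exposure (-0.74 ± 0.11 after CFC), but the HDACi-Context library lay above the Veh-CFC libraries. Xrcc4, the scaffold of the ligase, had 84.8 and 86.3 CPM against 69.8 and 72.4 CPM after CFC, and 93.6 against 78.4 CPM in Context, a change of -0.27 ± 0.09. The call on Xrcc4 was lost with the stricter gate (0.00), with DESeq2 (-0.25) and without either Veh-CFC library (-0.29 and -0.25). Lig3, a ligase of single-strand break repair, fell by 1.63 ± 0.18, and Lig4 was not called at -0.55 ± 0.38.

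Of the other pathways, Msh3, a mismatch sensor for small loops, had 47.2 and 47.6 CPM in Veh-CFC against 23.3 and 21.8 CPM in HDACi-CFC, and 44.4 against 18.4 CPM in Context. No HDACi library reached a vehicle library, and the log2 fold change was -1.08 ± 0.11, while Msh6 was not called at -0.58 ± 0.30. Ercc6, the Cockayne syndrome protein that acts on stalled RNA polymerase, had 25.5 and 26.8 CPM against 15.2 and 16.5 CPM after CFC, and 43.0 against 22.4 CPM in Context, a change of -0.72 ± 0.14. The nuclease gene Ercc5 and the damage sensor gene Xpc fell by 1.48 ± 0.16 and 1.06 ± 0.20, and Ercc4 and Xpa were not called, both at -0.11. Fancl, the ligase of the Fanconi anaemia complex, had 26.9 and 24.7 CPM against 14.9 and 16.6 CPM after CFC, and 28.1 against 17.4 CPM in Context (-0.69 ± 0.14). Fancc, a scaffold subunit, had 23.4 and 25.5 CPM against 19.2 and 18.3 CPM after CFC, and 20.7 against 18.3 CPM in Context (-0.40 ± 0.14), a call lost with DESeq2 (-0.38) and on leaving out Veh-CFC replicate 2 (-0.32) or HDACi-CFC replicate 2 (-0.35). Fanca, at under 3 CPM, was not called.

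The poly(ADP-ribose) polymerases, which mark single-strand breaks, also went opposite ways. Parp1 (chr1:180568924-180601254, plus strand), the main enzyme, had 40.9 and 35.9 CPM in Veh-CFC, 86.8 and 90.4 CPM in HDACi-CFC, 46.4 CPM with vehicle in Context and 105 CPM with HDACi in Context. Every HDACi library was above every vehicle library, and the change of 1.22 ± 0.10 (2.32-fold higher) was the largest rise among the 44 genes. Parp2, its relative, fell by 1.06 ± 0.16. Parp1 was the 1 gene of the set still called higher with library-size scaling, under which 36 of the 44 genes were called lower. That scaling moved the median of all genes by -0.36 and called 45.8% of all genes lower and 9.95% higher.

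Other measures moved with the treatment in DG granule nuclei, given here as CPM of the class sum without TMM scaling. The summed level of the 7 DG granule markers was 1851 and 1934 CPM in Veh-CFC against 2506 and 2455 CPM in HDACi-CFC. The rise lay mainly in Stxbp6 (923 and 970 against 1470 and 1460 CPM) and Prox1 (267 and 275 against 400 and 365 CPM), while C1ql2 (196 and 207 against 176 and 168 CPM), Dsp and Trpc6 were lower in both HDACi-CFC libraries. The 6 CA3 markers summed to 311 and 331 against 465 and 509 CPM, of which Cpne4 made up 261 and 276 against 437 and 472 CPM. That of the 7 astrocyte markers was 853 and 812 against 1317 and 1416 CPM, of which Slc4a4, also present in granule nuclei, made up 841 and 797 against 1300 and 1400 CPM. The other 6 astrocyte markers were between 0.55 and 7.29 CPM in the 4 libraries, and none was at 0. The part of these shifts, and of the fewer genes detected per nucleus, in the lower levels of the repair genes was not tested. Fewer RNA molecules of a gene per nucleus and fewer nuclei containing it cannot be told apart in sums over nuclei.

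Genes of like level and length were called lower more often than genes at large, which is given as a description. For each of the 44 genes, the other genes tested in DG granule nuclei within 0.5 in mean log2 CPM and within 1.5-fold in gene span were taken, 33 to 755 of them. They were called lower in a mean of 38.5% (from 6.06% for Rad51b to 56.0% for Atm) and higher in a mean of 20.2%, against 63.6% and 11.4% of the 44 genes. The log2 fold change was below the median of its window for 34 of the 44. For Atm 0.415% of the 241 genes in its window had a log2 fold change as low, and for Terf1 0.435% of 690. For Smc6 it was 0.669% of 598 and for Mcph1 0.826% of 121. The set was drawn up because these genes were lower with the inhibitor, so such low shares were fixed in advance and support nothing. Across genes, gene span and log2 fold change had a Spearman's rho of 0.11 over the 44 genes and 0.09 over 15609 genes. For mean level it was 0.32 and 0.10. These points share the same 4 libraries.

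Several of the genes start head to head with another protein-coding gene within 1000 bases, and 11 of these neighbours were tested in DG granule nuclei after CFC. Of the 11, 7 were called lower, 0 higher and 4 were not called, beside 26.5% of all genes called lower. Gen1, a resolvase of recombination whose start lies 85 bases from that of Smc6, was also called lower (-1.89), at 2.57 and 1.58 CPM in Veh-CFC against 0.495 and 0.544 CPM in HDACi-CFC. Npat, a regulator of histone genes that starts 307 bases from Atm, was called lower by a smaller amount (-0.47, against -2.28 for Atm), at 31.6 and 30.5 CPM against 22.1 and 22.4 CPM. Mcm4, a subunit of the replicative helicase 466 bases from Prkdc, had a log2 fold change of -3.14 and was at 0.218 to 3.23 CPM. The neighbours of Terf2ip (Kars, -0.69) and Xpc (Lsm3, -0.97) were called lower with them, and those of Palb2 (Dctn5, -0.23), Brca1 (Nbr1, -0.05), Lig4 (Abhd13, 0.21) and Rad51c (Tex14, 0.15) were not called. Zfyve26 and Ribc1, next to Rad51b and Smc1a, were called lower at -1.47 and -1.13 while those genes were not called.

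Across classes after CFC, the genes called lower outnumbered those called higher in each of the 8 classes, as shown in the map of fold changes by class. In CA1 nuclei 25 of 44 genes tested were lower and 4 higher (20.1% and 18.3% of all genes), and in CA3 nuclei 18 and 3 of 42 (16.3% and 16.8%). In interneuron nuclei, which leave out the Sst cluster, 13 of 36 were lower and 0 higher (10.3% and 14.7%). The glial classes gave 18 lower and 5 higher of 39 in oligodendrocytes (17.3% and 19.7%), 9 and 2 of 27 in oligodendrocyte precursors (12.7% and 17%), 16 and 2 of 31 in astrocytes (11.3% and 14.9%) and 14 and 2 of 31 in microglia (18.5% and 20.8%). Medians of the log2 fold change over the genes tested ran from -0.34 in CA3 to -0.87 in astrocytes, while those of all genes were within 0.02 of 0. With library-size scaling the counts lower and higher became 32 and 2 in CA1 (6225 and 1098 of all 14799 genes) and 30 and 1 in CA3 (4375 and 1017 of 13608). They became 20 and 0 in interneurons (2720 and 630 of 10256) and 26 and 0 in oligodendrocytes (3526 and 970 of 10288). Precursors gave 16 and 1 (1882 and 660 of 6968), astrocytes 20 and 0 (2090 and 715 of 8446) and microglia 17 and 2 (1992 and 937 of 6963). In each of these classes that scaling also called more of all genes lower than TMM scaling did. DESeq2 called 11 genes in CA3, 4 in interneurons, 10 in oligodendrocytes, 3 in precursors, 1 in astrocytes and 8 in microglia. In the smaller classes single libraries weighed heavily. Without Veh-CFC replicate 2 the genes called fell from 13 to 8 in interneurons, from 23 to 15 in oligodendrocytes, from 18 to 6 in astrocytes and from 16 to 10 in microglia, and in astrocytes leaving out Veh-CFC replicate 1 gave 11, and leaving out HDACi-CFC replicate 2 gave 8.

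**Figure D2:**
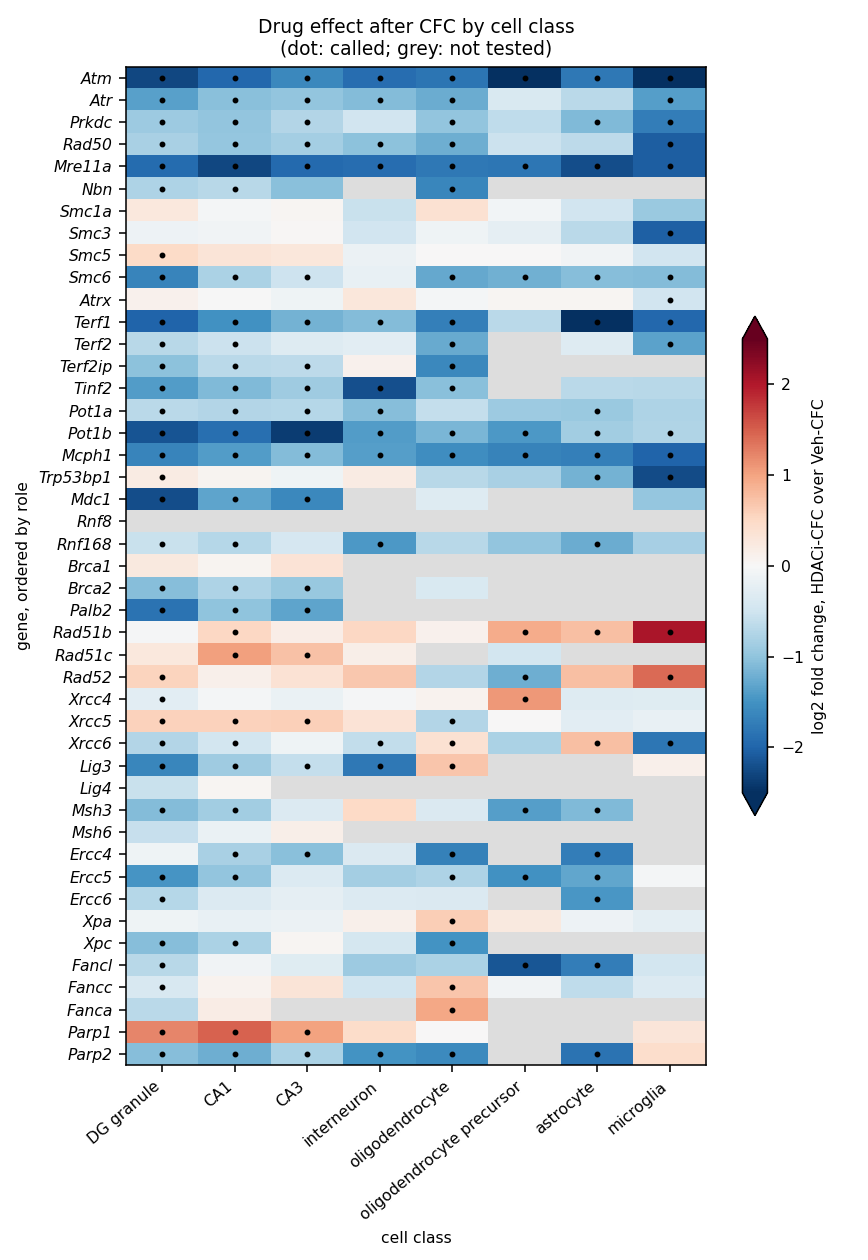
Log2 fold change of HDACi-CFC over Veh-CFC for the 45 genes (vertical, ordered by role) in the 8 classes (horizontal), from blue (lower) to red (higher). A dot marks a call and grey a gene not tested. The rows of Atm, Mre11a, Pot1b and Mcph1 are blue with a dot in all 8 classes, and the row of Parp1 is red with a dot in DG granule, CA1 and CA3 nuclei.

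Atm, Mre11a, Pot1b and Mcph1 were called lower in all 8 classes by edgeR, and by DESeq2 in 7, 5, 6 and 5 of them. Their log2 fold changes ran from -2.96 (microglia) to -1.62 (CA3) for Atm, from -2.27 to -1.79 for Mre11a, from -2.37 (CA3) to -0.75 (microglia) for Pot1b and from -2.01 to -1.09 for Mcph1. Terf1 was lower in 7 classes (from -2.94 in astrocytes; -0.67 and not called in oligodendrocyte precursors). Smc6 was lower in 7, from -1.65 in DG granule nuclei, with -0.19 in interneurons, where it was not called. DESeq2 called Terf1 in 6 classes and Smc6 in 4. Atr, Prkdc, Rad50 and Parp2 were lower in 6 classes, Tinf2, Pot1a and Ercc5 in 5, and Terf2, Terf2ip, Rnf168, Lig3, Msh3, Ercc4 and Xrcc6 in 4. Nbn, Mdc1, Brca2, Palb2, Xpc and Fancl were lower in 3. With DESeq2 Prkdc was called lower in 5 classes, and Atr and Rad50 in 4. Parp2, Tinf2, Pot1a, Ercc5, Rnf168, Lig3, Msh3, Ercc4, Xrcc6 and Xpc were called lower by it in 2 classes. For Terf2, Terf2ip, Mdc1, Brca2, Palb2 and Fancl it was 1 class, and for Nbn 0. In the other direction Rad51b, a paralog of the recombinase, was called higher in 4 classes, CA1 (0.51), oligodendrocyte precursors (0.92), astrocytes (0.76) and microglia (2.04). Parp1 was higher in DG granule, CA1 and CA3 nuclei (1.22, 1.48 and 1.01) and stood at 0.45, 0.00 and 0.31 in interneurons, oligodendrocytes and microglia, where it was not called, and could not be tested in astrocytes and precursors. Xrcc5 was higher in the same 3 neuronal classes (0.58, 0.57 and 0.59). DESeq2 called Parp1 higher in those 3 classes, and Rad51b and Xrcc5 in 1 class each. Differences between classes were not tested.

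The Context pair gave the same treatment in mice that were not shocked, in libraries that share no animals with the CFC groups. With 1 library a group there is no test, and the intervals cover counting error only. Of the 44 genes 25 were at least 1.5-fold lower in the HDACi-Context library and 2 at least 1.5-fold higher. Over all 17944 genes 22.8% were that much lower and 17.9% that much higher. The log2 ratio was -1.90 for Atm (95% counting interval -2.17 to -1.64), -1.64 for Terf1 (-1.84 to -1.45), -1.90 for Mcph1 (-2.13 to -1.69) and -1.01 for Smc6 (-1.19 to -0.83). Parp1 and Rad52 were the higher pair, at 1.18 (1.05 to 1.32) and 0.81 (0.64 to 0.98). All 28 genes called lower after CFC were also lower in Context, as were 96.4% of all genes called lower. Of the 5 called higher 4 were higher in Context, as were 95.3% of all genes called higher, and the exception was Trp53bp1 at -0.06 (-0.18 to 0.06). The median log2 ratio was -0.68 over the 44 genes and -0.02 over all genes.

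**Figure D3:**
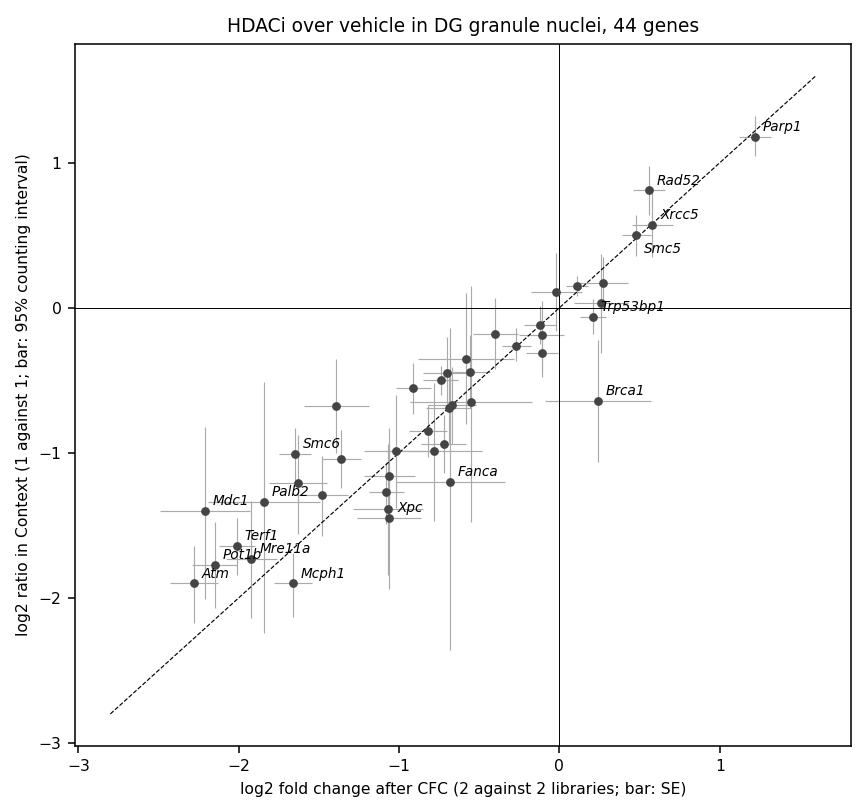
Each point is 1 of 44 genes in DG granule nuclei. The horizontal axis is the log2 fold change of HDACi over vehicle after CFC (2 against 2 libraries, bar: SE), the vertical axis the log2 ratio in Context (1 against 1 library, bar: 95% counting interval), and the dashed line marks equal values. Parp1 lies at the upper right (1.22 and 1.18) and Atm at the lower left (-2.28 and -1.90).

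The test of the difference itself found no gene of the set whose response to the drug differed between CFC and Context. In DG granule nuclei edgeR's interaction test called 0 of the 44 genes and 0.936% of all genes, and 2 of the 44 had an unadjusted p below 0.05. The lowest adjusted p of the 44 was 0.079. In the other 7 classes 0 were called as well, with 0 to 3 genes at an unadjusted p below 0.05. The Context side of this test rests on 1 library per treatment, so a difference of moderate size could have been missed.

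CFC and Context were compared over all 6 libraries with the drug as covariate, a contrast that did not choose the genes. The Context libraries were processed with Cell Ranger 3.0.2 and the CFC libraries with 3.0.1, so exposure and that difference in read processing cannot be told apart. Whether the Context libraries were also prepared and sequenced apart from the CFC libraries is not known here. Such a difference could not be told apart from exposure either. In DG granule nuclei 14 of 44 genes were called, 10 lower and 4 higher after CFC, where 41% of all genes were called, and in CA1 nuclei 13 of 44 (39.1% of all). Counts were 11 of 44 tested in CA3 (36.9%), 6 of 41 in interneurons (21.5%), 2 of 41 in oligodendrocytes (17.6%), 2 of 37 in their precursors (9.98%), 1 of 36 in astrocytes (10.9%) and 1 of 34 in microglia (13%). The set was thus called no more often than genes at large. Without Veh-Context replicate 1 the count was 7 in DG granule and 7 in CA1 nuclei.

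Xrcc6, the Ku70 gene, was the gene of the set with the lowest adjusted p, and it was lower after CFC in 6 of the 8 classes. The DG granule levels given above were 37.7 to 70.3 CPM in the 4 CFC libraries and 97.5 and 138 CPM in the 2 Context libraries, which did not overlap. The log2 fold change of CFC over Context was -1.08 ± 0.09 (edgeR adjusted p = 6.21e-08), and it was called under each of 8 alternative settings, from -1.22 to -0.96. It was -1.17 ± 0.08 in CA1 (edgeR adjusted p = 2.12e-09), -1.39 ± 0.08 in CA3 (edgeR adjusted p = 1.27e-10) and -1.22 ± 0.16 in interneurons (edgeR adjusted p = 1.29e-06). In oligodendrocytes, where Xrcc6 had 152 to 219 CPM after CFC and 314 and 525 CPM in Context, it was -1.11 ± 0.11 (edgeR adjusted p = 1.32e-06), and in their precursors -0.90 ± 0.29 (edgeR adjusted p = 0.0441).

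**Figure D4:**
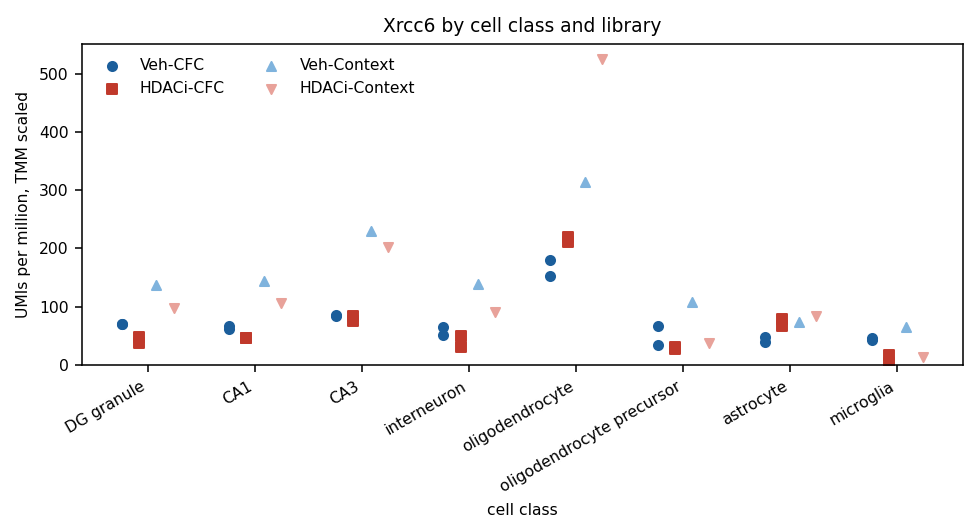
Level of Xrcc6 in CPM after TMM scaling (vertical) in the 8 classes (horizontal), with 1 point per library and marker shapes for the 4 groups. In DG granule nuclei the Context libraries lie at 97.5 and 138, above the 4 CFC libraries at 37.7 to 70.3.

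Smc1a, a cohesin subunit, was lower after CFC in DG granule, CA1, CA3 and interneuron nuclei. Its DG granule levels were 15.9 to 23.6 CPM in the CFC libraries and 36.2 and 40.8 CPM in Context (-1.04 ± 0.11, edgeR adjusted p = 1.96e-06), and it was called under each of 8 alternatives. Brca1, the recombination and checkpoint scaffold, had 1.72 to 3.69 CPM after CFC and 8.75 and 5.63 CPM in Context (-1.21 ± 0.25, edgeR adjusted p = 0.00114). Without Veh-Context replicate 1 it was -0.72 and not called. Ercc6 was lower by 0.62 ± 0.10, with Nbn at -0.82, Msh6 at -0.70, Tinf2 at -0.49 and Rad50 at -0.36. Mre11a was higher after CFC in DG granule nuclei, at 0.69 ± 0.14, with 29.6 and 26.6 CPM in Veh-CFC against 16.5 CPM in the library labelled Veh-Context, and 6.61 and 7.89 CPM in HDACi-CFC against 4.97 CPM in HDACi-Context. Fanca was higher at 0.82 ± 0.32 from under 3 CPM, a call that was lost under all 8 alternatives. The call was kept under 3 of 8 alternatives for Tinf2, 5 of 8 for Msh6, 6 of 8 for Nbn and 7 of 8 for Brca1, Mre11a and Rad50. Leaving out Veh-Context replicate 1 ended the calls of Nbn (-0.70), Mre11a (0.56) and Rad50 (-0.36), and moved Tinf2 to -0.92. Leaving out HDACi-Context replicate 1 ended those of Tinf2 (-0.19) and Msh6 (-0.60). Msh6 also lost its call without HDACi-CFC replicate 2 (-0.52), and Tinf2 without Veh-CFC replicate 1, HDACi-CFC replicate 1 or HDACi-CFC replicate 2 (-0.50, -0.39 and -0.45). Without TMM scaling, the 7 microglia markers summed to 93 to 116 CPM in DG granule nuclei of the CFC libraries and to 379 and 224 CPM in those of Context, with P2ry12 at 36.4 to 57.2 CPM in CFC and at 127 and 99.7 CPM in Context, and their part in these differences was not tested.

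Cell types were compared within the 3 vehicle libraries, without the drug, as the mean of the 4 neuronal classes against that of the 4 glial classes. Of 43 genes tested 22 were called higher in glia and 9 higher in neurons, against 30.6% and 35.9% of 14191 genes. With library-size scaling, which moved the median of all genes from 0.02 to -0.18, the counts were 29 and 6. In the 3 HDACi libraries they were 16 and 14. Shares of all genes called are not given for library-size scaling or for the HDACi libraries. The changed counts can therefore not be read as particular to the set.

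**Figure D5:**
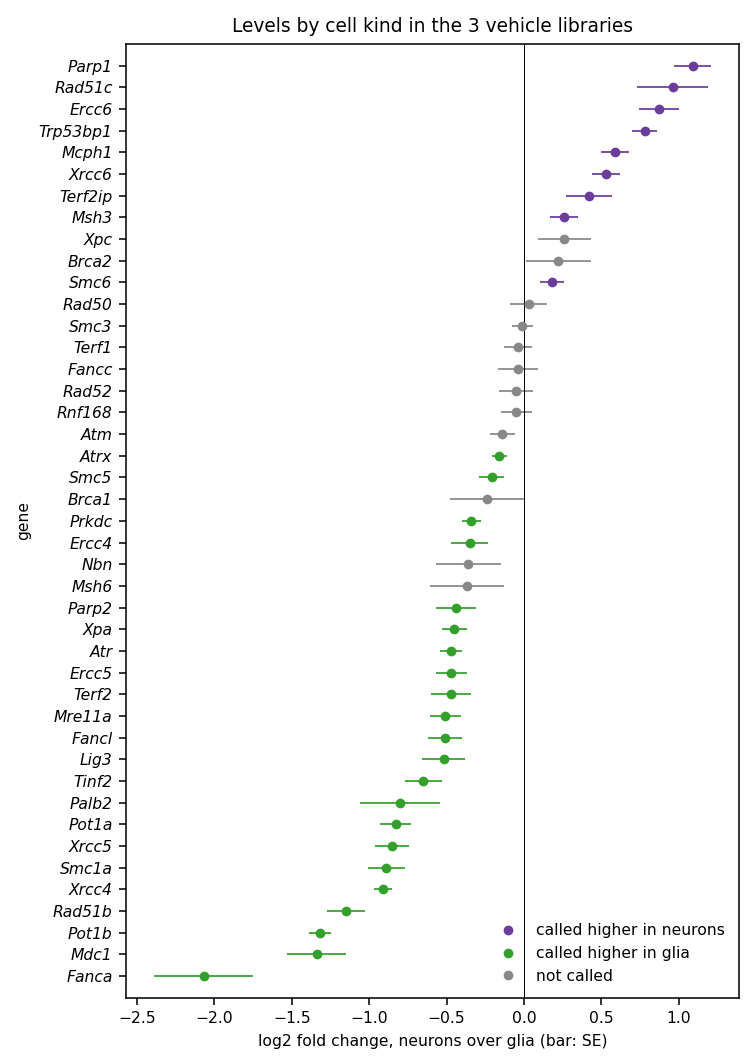
Log2 fold change of neurons over glia (horizontal, bar: SE) for 43 genes (vertical) in the 3 vehicle libraries, with calls higher in neurons, calls higher in glia and genes not called in 3 colours. Parp1 is at the top (1.09) and Fanca at the bottom (-2.07), and Atm and Terf1 lie at -0.14 and -0.04, which library-size scaling moved to -0.33 and -0.24.

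Fanca, the largest subunit of the Fanconi anaemia core complex, was lowest in neurons relative to glia, at -2.07 ± 0.32 (edgeR adjusted p = 5.18e-07). It had 18.7 ± 2.83 CPM (SD, n = 3 libraries) in oligodendrocytes, above every other class, and 1.41 to 3.13 CPM on average in the neuronal classes. Pot1b (-1.32 ± 0.07) had 121 ± 22.2 CPM in oligodendrocytes and 107 ± 38.7 CPM in microglia, which overlapped, and 35.5 to 46.5 CPM on average in neurons. Mdc1 (-1.34 ± 0.19) and Rad51b (-1.15 ± 0.12) were highest in microglia, at 26.9 ± 3.52 and 90.8 ± 27.2 CPM. The microglial libraries did not overlap any other class for Mdc1, while for Rad51b (66.4 to 120 CPM) they overlapped oligodendrocyte precursors (28.9 to 77.2 CPM). Xrcc4 (-0.91 ± 0.06) was highest in oligodendrocyte precursors at 239 ± 24.4 CPM, again without overlap. Smc1a and Xrcc5 were also higher in glia, at -0.89 ± 0.12 and -0.85 ± 0.11, and in the HDACi libraries Xrcc5 was at 0.03 and not called.

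Parp1 led the genes higher in neurons, at 1.09 ± 0.12 (edgeR adjusted p = 1.33e-10), with 68.9 ± 8.29 CPM in CA1 nuclei and 17.3 ± 5.10 CPM in astrocytes. The CA1 libraries did not overlap those of DG granule nuclei (50.8 ± 6.21 CPM), the next class. Rad51c (0.96 ± 0.23) was called higher in neurons although its highest class was oligodendrocyte precursors, at 23.7 ± 8.20 CPM. Ercc6 (0.87 ± 0.13) was highest in CA3, with wide spread (47.0 ± 15.8 CPM). Scaled within the CA3 class, it had 28.4 and 34.1 CPM in the Veh-CFC libraries and 52.6 CPM in Veh-Context. Of the genes on which the set was drawn up, Mcph1 was higher in neurons (0.59 ± 0.09), with 69.4 to 75.8 CPM on average in the principal neurons and 24.4 ± 0.251 CPM in oligodendrocytes, although its highest mean was in oligodendrocyte precursors (105 ± 28.6 CPM). Smc6 was called at 0.18 ± 0.08, a call lost with library-size scaling (-0.01). Atm and Terf1 were not called (-0.14 ± 0.08 and -0.04 ± 0.09), but with library-size scaling both were called higher in glia (-0.33 and -0.24). Their mean levels ran from 44.1 to 62.5 CPM and from 59.2 to 80.8 CPM over the 8 classes.

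Other genes of these pathways were taken from lists of 198 repair and telomere genes and 19 p53 target genes that hold no gene of the set. In DG granule nuclei after CFC 182 of the 198 were tested, of which 86 were called lower and 24 higher (47.3% and 13.2%, beside 26.5% and 23.8% of all genes), with a median log2 fold change of -0.38. The other telomere genes, among them the shelterin gene Acd, gave 11 lower and 0 higher of 22. They were led by Ctc1 (-1.93 ± 0.21), a subunit of the CST complex that completes telomere replication, and by Dclre1b (-1.41 ± 0.51), the nuclease Apollo. End joining gave 5 lower and 0 higher of 8, led by Aplf (-2.73 ± 0.45) and Paxx (-1.90 ± 0.18), both of which bind Ku. Mismatch repair gave 3 lower and 0 higher of 5, among them Pms1 (-2.11 ± 0.18), which encodes a protein of the MutL family.

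Recombination gave 13 lower and 2 higher of 26, with the helicase gene Helq (-2.33 ± 0.18) and Gen1 lowest and Eme2 (1.01 ± 0.30) and Xrcc3 (0.86 ± 0.33) highest. Helq had 24 and 27.1 CPM in Veh-CFC against 4.95 and 5.23 CPM in HDACi-CFC. Checkpoint and break signalling gave 17 lower and 6 higher of 36, from Etaa1, an activator of ATR (-2.00 ± 0.34), and Abraxas1 (-1.67 ± 0.18) to Rad9b (0.97 ± 0.10) and Clspn (1.67 ± 0.31), which encodes claspin, a mediator of the ATR pathway. Cohesin and SMC5/6 genes gave 10 lower and 3 higher of 15, with Smc4 (-1.33 ± 0.24), a condensin subunit, and Slf1 (-1.11 ± 0.11), a recruiter of SMC5/6, lowest and Wapl (0.54 ± 0.07), the cohesin release factor, and Stag2 (0.21 ± 0.09) highest. Fanconi anaemia genes gave 8 lower and 3 higher of 15, from Faap24 (-2.79 ± 0.70) and Fancb (-1.94 ± 0.56), both under 2 CPM, to Fan1 and Faap20, both at 0.94 ± 0.15.

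Translesion synthesis gave 6 lower and 3 higher of 11, with Hltf (-2.14 ± 0.19) and the polymerase gene Polh (-1.47 ± 0.17) lowest and Poli (0.61 ± 0.19) and Shprh (0.40 ± 0.09) highest. Nucleotide excision repair gave 8 lower and 3 higher of 21, from Ercc3 (-1.17 ± 0.28) and Ercc8 (-1.04 ± 0.15) among the lower to Ccnh (0.35 ± 0.08) among the higher. Base excision and single-strand break repair was nearer balance, with 5 lower and 4 higher of 23. Its lowest called genes were Ung, the uracil glycosylase, which was at 1.35 CPM or less in every library, and Adprhl2 (-1.19 ± 0.15), which removes ADP-ribose from serine. Its highest were Polb (0.30 ± 0.07), the gap-filling polymerase, and Mpg (1.10 ± 0.15), an alkyl-adenine glycosylase. Among 11 p53 target genes tested 4 were lower and 4 higher, with Sesn2 (2.94 and 3.08 CPM against 0.165 and 0 CPM) and Trp53inp1 (-2.03 ± 0.24) lowest and Eda2r (1.18 ± 0.41) and Btg2 (1.28 ± 0.10) highest.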

How the data were processed

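RNA of single hippocampal nuclei was measured in 6 libraries. The deposited matrices hold raw UMI counts per gene and barcode, made by the authors with Cell Ranger 3.0.1 (CFC) and 3.0.2 (Context) per the file headers, on build mm10 per the submitters' processing notes, which also name Seurat 4.0.3. Whether intron reads were counted is not given in the sources used here.

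Barcodes under 500 genes or over 5% mitochondrial UMIs and Scrublet doublets (rate 0.06) were dropped, which left 26839 of 30323. Clusters came from scanpy 1.11.5 and leidenalg 0.10.2 (2000 variable genes without the repair and telomere genes, 30 components, 20 neighbours, resolution 0.3) and were named from 12 marker lists. Clusters that did not meet all naming criteria stayed out, and so did the endothelial, immature neuron, subicular and mural or leptomeningeal classes. Counts were summed per class and library and tested by edgeR 4.0.16 under R 4.3.3 (TMM scaling after filterByExpr, two-sided quasi-likelihood test, Benjamini-Hochberg adjustment over all genes of the class). The fit was also run on simulated counts in which few genes changed, evenly up and down, which does not check the scaling. DESeq2 1.42.0 was an alternative, with other scalings, filters, gates and left-out libraries. Gene positions are GENCODE M21 (31011 of 31053 IDs matched). The genes and lists were chosen with earlier results of these data known.

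Genes with values by library were Atm, Terf1, Mcph1, Smc6 and each gene called in DG granule nuclei after CFC whose groups did not overlap and whose mean log2 CPM was at least 4. Across classes, genes called in at least 3 were named, in other tests the 10 largest changes called, and in each pathway list the 2 highest and 2 lowest. Some genes that these rules would name are not reported here. P-values of the drug, exposure and interaction tests measure the spread between pools of 5 mice. The test of neurons against glia took the library as a block. Its p-values measure how differences between classes varied over the same 3 pools.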

Additional observations from a re-analysis of the deposited data

Results flagged for a closer look

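For 7 genes both HDACi-CFC libraries lay above both Veh-CFC libraries in one cell class and below them in another, with a call in each. The difference between classes was not tested. Xrcc6 had log2 fold changes of -0.74 in DG granule, -0.45 in CA1, -0.62 in interneuron and -1.81 in microglial nuclei, and of 0.39 in oligodendrocytes and 0.76 in astrocytes. Xrcc5, its partner in the Ku ring, went the other way in neurons and oligodendrocytes: 0.58 in DG granule, 0.57 in CA1 and 0.59 in CA3 nuclei, and -0.73 in oligodendrocytes. Lig3 was at -1.63 in DG granule, -0.88 in CA1, -0.60 in CA3 and -1.78 in interneuron nuclei, and at 0.70 in oligodendrocytes. Fancc was at -0.40 in DG granule nuclei and 0.69 in oligodendrocytes. Xrcc4 was at -0.27 in DG granule nuclei and 1.09 in oligodendrocyte precursors. Rad52 was at 0.56 in DG granule nuclei, 1.42 in microglia and -1.23 in oligodendrocyte precursors. Trp53bp1 was at 0.21 in DG granule nuclei, -1.19 in astrocytes and -2.24 in microglia. Of the 7, only Lig3 was called in both directions by DESeq2, lower in 2 classes and higher in 1. That method called Xrcc6 lower in 2 classes and Trp53bp1 in 1, Xrcc5, Xrcc4 and Rad52 higher in 1 each, and Fancc in 0. Xrcc6 in microglia stood at 4.29 and 17.3 CPM in HDACi-CFC, from class sums of 267651 and 458778 UMIs. Rad52 in precursors stood at 14.0 and 19.6 CPM, from 327180 and 482712 UMIs. With library-size scaling 0 genes of the set were called higher in oligodendrocytes, and 0 in astrocytes. The DG granule calls of Xrcc4, Fancc, Rad52, Xrcc5 and Trp53bp1 were each lost under some alternatives.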

How the results depend on the processing

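Of 273 values for the 21 genes with values by library in DG granule nuclei under 13 alternatives, 249 kept direction and call, 20 lost the call and 4 turned in sign, and 15 genes kept both under every alternative. Signs turned for Smc5 with per-nucleus scaling (-0.03) and for Trp53bp1 with library-size scaling (-0.15), per-nucleus scaling (-0.29) and the stricter gate (-0.21). Library-size scaling moved the median of all genes by -0.25 to -0.36 over the classes. In DG granule nuclei library-size and per-nucleus scaling left 1 gene called higher each, in CA1 they left 2 and 1, and DESeq2 left 2. DESeq2 called 11 genes in CA3, 4 in interneurons, 10 in oligodendrocytes, 3 in their precursors, 1 in astrocytes and 8 in microglia, and 7 each in DG granule and CA1 nuclei for CFC against Context. The stricter gate gave 8 in interneurons and 6 in astrocytes. Library-size scaling gave 20 in interneurons and 17 in precursors, per-nucleus scaling 18 in precursors, and no nuclei filter 20 in interneurons and 17 in precursors. In the HDACi libraries 14 genes were higher in neurons. The cause of these shifts was not tested.

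Leaving out 1 library at a time gave 26 to 28 genes lower and 4 to 6 higher in DG granule nuclei, and 22 to 23 lower and 3 to 5 higher in CA1. It gave 15 to 18 called in CA3, 8 to 11 in interneurons, 15 to 23 in oligodendrocytes, 9 to 11 in precursors, 6 to 14 in astrocytes and 10 to 14 in microglia. For CFC against Context it gave 7 to 12 in both DG granule and CA1 nuclei, and for cell types 7 to 8 higher in neurons and 16 to 21 higher in glia. A group left with 1 library was assumed to vary like the other. Clusters at resolution 1, chosen after seeing the data, left 28 lower and 5 higher in DG granule nuclei. That class then kept fewer nuclei, 561 and 851 in Veh-CFC (from 1098 and 1572) and 734 and 1024 in HDACi-CFC (from 1166 and 1531). Few UMIs limit the smaller classes.

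The CFC groups share replicate numbers, but same-numbered libraries share only a number: the correlation of their deviations was 0.13 in DG granule nuclei and 0.01 to 0.12 in the other classes. With the replicate number as a block 28 genes were lower and 5 higher in DG granule nuclei, and 26 and 5 in CA1.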
